A study of Mus musculus with 23 samples.

Results

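Dopamine is made from tyrosine by tyrosine hydroxylase and aromatic L-amino acid decarboxylase, packed into vesicles, released, taken back up by a membrane transporter and broken down in part by monoamine oxidase. Its receptors fall into the D1-like class, which raises cAMP, and the D2-like class, which lowers it, and both classes are abundant on the medium spiny neurons of the striatum. The cell bodies of the main dopamine neurons lie in the ventral midbrain, with smaller groups in the hypothalamus, and their axons reach the striatum and the frontal cortex. Described here are 9 genes of this system, 4 receptors (Drd1a, Drd2, Drd3 and Drd4), the synthesis enzymes Th and Ddc, the transporters Slc6a3 and Slc18a2, and the degrading enzyme Maoa. They were taken by gene symbol and make up 10 rows of the 31395 in the log2 table, which names 19972 genes. Ddc has 2 rows, for the transcripts NM_016672 and NM_001190448, and Slc18a2 has 1 row that averages 2 probes. All 11 probes of these genes on the array passed the filter on dim probes.

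Expression was measured on 23 single-color Agilent arrays of frontal cortex (FC), striatum (ST) and a further region that the study calls hypothalamus and the sample labels call thalamic (HT). The tissue came from 8 female C57BL/6 mice, 5 weeks old at the start. For 8 weeks, 4 of them received standard chow (SC, mice L52, L54, L56 and L58) and 4 a free choice of chow and a chocolate mixture (CM, mice O52, O54, O56 and O58), and all passed through an 11-day behavioral test battery before dissection. Each group held 4 arrays from 4 mice, apart from CM FC with 3, since an FC array of O52 was not analyzed here. The arrays lay on 3 slides, and all arrays of a CM group lay on a single slide (FC on 3, ST on 1, HT on 2), while the SC groups were spread over several. No slide held FC arrays of both diets, so diet and slide cannot be told apart in FC, and region and slide cannot be told apart in the CM mice.

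The dissections were checked with marker lists. The mean of 8 cortex markers was 9.63 to 10.43 on the FC arrays, 6.96 to 9.85 on the ST arrays and 6.79 to 7.62 on the HT arrays. For this mean the FC and ST arrays thus overlapped. The mean of 8 striatum markers was 14.46 to 15.26 on the ST arrays and at most 12.88 elsewhere. On the HT arrays the mean of 13 hypothalamus markers was 9.05 to 12.19, against 6.80 to 7.98 on the FC arrays, and the mean of 8 thalamus markers was 11.46 to 12.68, against 8.26 to 9.13. The hypothalamic factor Otp was below the filter. The mean of 7 midbrain dopamine neuron markers was 7.65 to 8.91 on the HT arrays, 6.12 to 7.18 on the ST arrays and 5.99 to 6.38 on the FC arrays. Of the other lists, the ranges over the 23 arrays lay between 3.30 and 5.79 for 2 noradrenaline neuron markers, between 4.80 and 5.87 for 2 serotonin neuron markers, between 5.13 and 6.79 for 2 pituitary markers and between 5.74 and 13.13 for 6 choroid plexus markers. The highest choroid plexus value was that of the ST array of O58. Slc6a2 and Slc6a4, the noradrenaline and serotonin transporters, were below the filter.

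Some arrays stood apart from their groups. The ST array of L52 had a hypothalamus marker mean of 10.30, against 6.92 to 8.65 on the other ST arrays, and Hcrt, the orexin precursor made in the lateral hypothalamus and picked out after its values were seen, was at 15.45 there and between 6.73 and 10.92 on the other ST arrays. The HT array of L54 had a striatum marker mean of 12.26, against 10.73 to 11.40 on the other HT arrays. The ST array of L54 had the highest cortex marker mean of the ST arrays, 9.85, within the range of the FC arrays. It also had the lowest ST values of Drd1a (11.16) and Drd2 (9.29), and the part of cortical tissue in them was not tested. On the FC arrays the striatum marker mean formed separate levels, 10.72, 10.72 and 11.04 for L52, O54 and O56 and 12.39 to 12.88 for L54, L56, L58 and O58. Calls that changed without one of these arrays are named below.

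The array reads each receptor gene through a 60-base probe, and the probes of Drd2, Drd3 and Drd4 are shown because the D2-like receptors are related in sequence. The capitals mark the longest run of bases, 10 in length, that the Drd3 and Drd4 probes have in common. The Drd2 probe shares no run longer than 6 bases with either. In mm9, the build of the array annotation, they lie at chr9:49215047-49215106 (+), chr16:43822893-43822952 (+) and chr7:148480683-148480742 (+).
Drd2: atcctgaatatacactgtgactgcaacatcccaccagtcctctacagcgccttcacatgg
Drd3: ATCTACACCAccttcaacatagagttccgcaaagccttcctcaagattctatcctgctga
Drd4: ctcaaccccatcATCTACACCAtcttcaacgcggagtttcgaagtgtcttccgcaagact

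The other probes lie at chr13:54147277-54147336 (-) for Drd1a, chr7:150078703-150078762 (-) for Th, chr11:11776262-11776321 (-) and chr11:11714106-11714165 (-) for Ddc NM_016672 and NM_001190448, chr13:73715973-73716032 (+) for Slc6a3, chr19:59370106-59370165 and chr19:59370153-59370212 (+) for Slc18a2, and chrX:16264785-16264844 (+) for Maoa. Of the 11 probes, 9 were well above background on all 23 arrays and none was saturated. The Drd3 probe was well above background on 22 arrays and missed this mark on 1 SC FC array. The second Slc18a2 probe reached it on 16 arrays, among them all 8 HT arrays.

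The receptors of medium spiny neurons were highest in ST. Drd1a, the D1 receptor, was at 11.88, 11.16, 11.98 and 12.12 on the SC ST arrays of L52, L54, L56 and L58, at 7.60, 9.06, 9.74 and 9.89 on their FC arrays and at 6.66, 9.06, 6.78 and 7.04 on their HT arrays. In CM mice it was at 11.93, 12.08, 12.07 and 12.14 in ST (O52, O54, O56 and O58), 7.61, 8.00 and 9.78 in FC (O54, O56 and O58) and 6.62, 6.78, 6.47 and 7.97 in HT. All 8 ST arrays lay above all 15 others, while FC and HT overlapped in both diets. ST exceeded FC by a log2 of 2.40 (SE 0.77) in SC mice and 3.68 (SE 0.47) in CM mice, with limma adjusted p of 0.0414 and 1.91e-06. HT was below FC by a log2 of -2.05 (adjusted p = 0.0167) in SC mice and -1.48 (adjusted p = 0.00735) in CM mice. These were not called without the SC HT array of L56 (adjusted p = 0.0533) and the CM FC array of O58 (adjusted p = 0.0511). Without the SC HT array of L54 the former was -2.55 (adjusted p = 0.00349). In the fit with slide as a fixed block neither was called (-1.385, limma adjusted p = 0.513, and -0.87, limma adjusted p = 0.688). The CM difference was also not called without array weights (-1.51, limma adjusted p = 0.057). The SC difference between ST and FC was called (adjusted p = 0.0127) without the ST array of L54, and without any other single array of the pair it rose to between 0.0516 and 0.159. Lower signal in a bulk dissection can come from fewer cells of a type or from less RNA per cell, which cannot be told apart here.

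Drd2, the D2 receptor and autoreceptor of dopamine neurons, was at 10.60, 9.29, 10.09 and 10.61 on the SC ST arrays and at 10.75, 11.11, 10.75 and 10.79 on the CM ST arrays. Its FC values were 5.49, 7.67, 8.11 and 7.60 in SC mice and 5.15, 5.57 and 7.56 in CM mice, and its HT values were 8.18, 7.53, 6.98 and 7.48 in SC mice and 7.11, 7.58, 7.41 and 7.15 in CM mice. ST again lay above both other regions without overlap. The excess of ST over FC was 2.45 (SE 0.66, adjusted p = 0.0173) in SC mice, or 5.47-fold, and 4.86 (SE 0.40, adjusted p = 1.37e-08) in CM mice. In SC mice it had an adjusted p of 0.0974 without the ST array of L56. Without the FC and HT arrays of L54 and the ST array of L52 together, the SC differences of Drd1a (2.21) and Drd2 (2.33) had adjusted p of 0.0749 and 0.0761. HT exceeded FC in CM mice by 1.38 (adjusted p = 0.00396). This was not called without the FC array of O54 or O56 (adjusted p = 0.0951 and 0.0649). Nor was it called without array weights (1.21, limma adjusted p = 0.0843) or with slide as a fixed block (1.90, limma adjusted p = 0.2005). In SC mice the difference of -0.15 did not pass (adjusted p = 0.854), and without array weights it was 0.32 (adjusted p = 0.629).

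Drd3, a D2-like receptor best known from the ventral striatum, was between 8.01 and 9.14 on the 8 ST arrays and between 4.44 and 6.89 on the others. ST exceeded FC by 2.77 (SE 0.44, adjusted p = 0.00103) in SC mice and by 2.88 (SE 0.27, adjusted p = 5.21e-08) in CM mice. HT was called above FC in CM mice. This call was lost without the FC array of O54 (0.58, limma adjusted p = 0.0746) or O56 (0.71, limma adjusted p = 0.0508). It was also lost without array weights (0.84, limma adjusted p = 0.0827) and with slide as a fixed block (1.46, limma adjusted p = 0.173). In SC mice the difference of HT from FC was not called, but without array weights it was (1.02, limma adjusted p = 0.0217). Drd4, a D2-like receptor of the frontal cortex and retina, was highest in FC by median and lowest in HT, with 6.37 to 7.35 in FC, 5.95 to 6.82 in ST and 5.35 to 6.32 in HT. The log2 difference of HT from FC was -1.02 (SE 0.23, adjusted p = 0.0016) in SC mice and -0.91 (SE 0.16, adjusted p = 5.15e-05) in CM mice. ST was below FC in CM mice (-0.68, adjusted p = 0.00169), and in SC mice the difference of -0.45 had an adjusted p of 0.29. With slide as a fixed block, neither CM difference from FC was called (HT -0.36 and ST -0.14, limma adjusted p = 0.595 and 0.918). The SC difference of HT from FC was still called then (-1.47, limma adjusted p = 0.0174). HT against ST did not pass in either diet (-0.56, adjusted p = 0.117, and -0.23, adjusted p = 0.242), although all SC HT arrays lay below all SC ST arrays, a lack of overlap that 21.7% of all rows had in one direction or the other.

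Th, the rate-limiting enzyme of catecholamine synthesis, was at 14.10, 12.39, 12.93 and 13.80 on the SC HT arrays and at 11.57, 13.92, 13.72 and 11.78 on the CM HT arrays. In ST it was between 10.30 and 11.04. In FC it was at 9.62, 9.66 and 9.75 on the SC arrays of L52, L56 and L58, at 9.58, 10.09 and 9.96 on the CM arrays and at 13.27 on the SC array of L54. That single FC array lay in the range of the HT arrays, and the other FC arrays lay at or below 10.09. HT exceeded ST by 2.46 (SE 0.77, adjusted p = 0.0254) in SC mice and 2.32 (SE 0.51, adjusted p = 0.000625) in CM mice. It exceeded FC by 2.70 (adjusted p = 0.00493) and 3.13 (adjusted p = 1.46e-05), and without the FC array of L54 the former was 3.46 (adjusted p = 0.000396). In the fit with slide as a fixed block none of these 4 differences was called. Those from ST were then 2.61 (adjusted p = 0.144) and 2.84 (adjusted p = 0.0642), and those from FC 3.36 (adjusted p = 0.112) and 3.005 (adjusted p = 0.114).

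On the FC array of L54 the mean of the 7 midbrain dopamine neuron markers was 5.99, the second lowest of the 7 FC arrays, and Slc6a3 was at 8.50, the highest. The mean of 2 noradrenaline neuron markers was 5.72 there, within the range of 5.06 to 5.79 on the other FC arrays. The part of other cells or of the dissection in this value was not tested.

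Slc6a3, the plasma membrane dopamine transporter and the most selective of these genes for dopamine neurons, showed the widest differences between regions. It was at 14.61, 12.54, 13.08 and 13.69 on the SC HT arrays and at 11.37, 14.14, 13.97 and 12.12 on the CM HT arrays, and between 5.28 and 8.50 on all 15 FC and ST arrays. The HT arrays lay above FC by 6.59 (SE 0.88, adjusted p = 9.14e-06), or 96.2-fold, in SC mice and by 6.22 (SE 0.60, adjusted p = 2.61e-08), or 74.4-fold, in CM mice. FC and ST did not differ beyond the spread between arrays (-0.45, SE 1.04, and -0.19, SE 0.64).

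Slc18a2, the vesicular transporter of dopamine, serotonin, noradrenaline and histamine, was between 8.03 and 10.21 in HT, 5.39 and 8.14 in ST and 6.25 and 6.97 in FC. The ST value of 8.14 was that of L52, the only ST value above the lowest HT value of 8.03, and the other ST arrays lay at or below 7.02. HT exceeded ST by 2.72 (SE 0.57, adjusted p = 0.00145) in SC mice (3.05 without the ST array of L52) and 2.49 (SE 0.38, adjusted p = 1.21e-05) in CM mice. Its brighter probe read 9.46 to 11.60 in HT and its dimmer probe 6.60 to 8.82. With a value for each probe, no call changed for the brighter Slc18a2 probe or for the other genes. The calls of the dimmer probe were not compared.

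Ddc, which makes dopamine and serotonin from their direct precursors, was high in HT on both rows. NM_001190448 was between 11.85 and 13.63 in HT, 9.90 and 10.98 in ST and 8.64 and 10.01 in FC. NM_016672 was between 7.88 and 9.83 in HT, 6.08 and 7.62 in ST and 5.42 and 6.97 in FC. The excess of HT over FC was 2.98 (SE 0.45) and 2.38 (SE 0.51) in SC mice and 3.76 (SE 0.30) and 3.30 (SE 0.34) in CM mice, with adjusted p of at most 0.000929. In CM mice ST also exceeded FC, by 1.39 (adjusted p = 0.00108) and 1.17 (adjusted p = 0.00968), whereas in SC mice the adjusted p were 0.459 and 0.991. In a fit with slide as a fixed block the CM differences were 0.10 and -0.40, and neither was called.

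Maoa, the monoamine oxidase that degrades serotonin, noradrenaline and dopamine, varied least. It was between 9.20 and 9.89 in HT, 8.61 and 8.94 in ST and 8.59 and 8.85 in FC, without overlap between HT and the rest. HT exceeded FC by 0.91 (SE 0.14, adjusted p = 4.87e-05) in SC mice and 0.94 (SE 0.10, adjusted p = 6.51e-08) in CM mice, which is 1.88-fold and 1.92-fold. FC and ST overlapped (differences of 0.10 and 0.05).

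**Figure D1:**
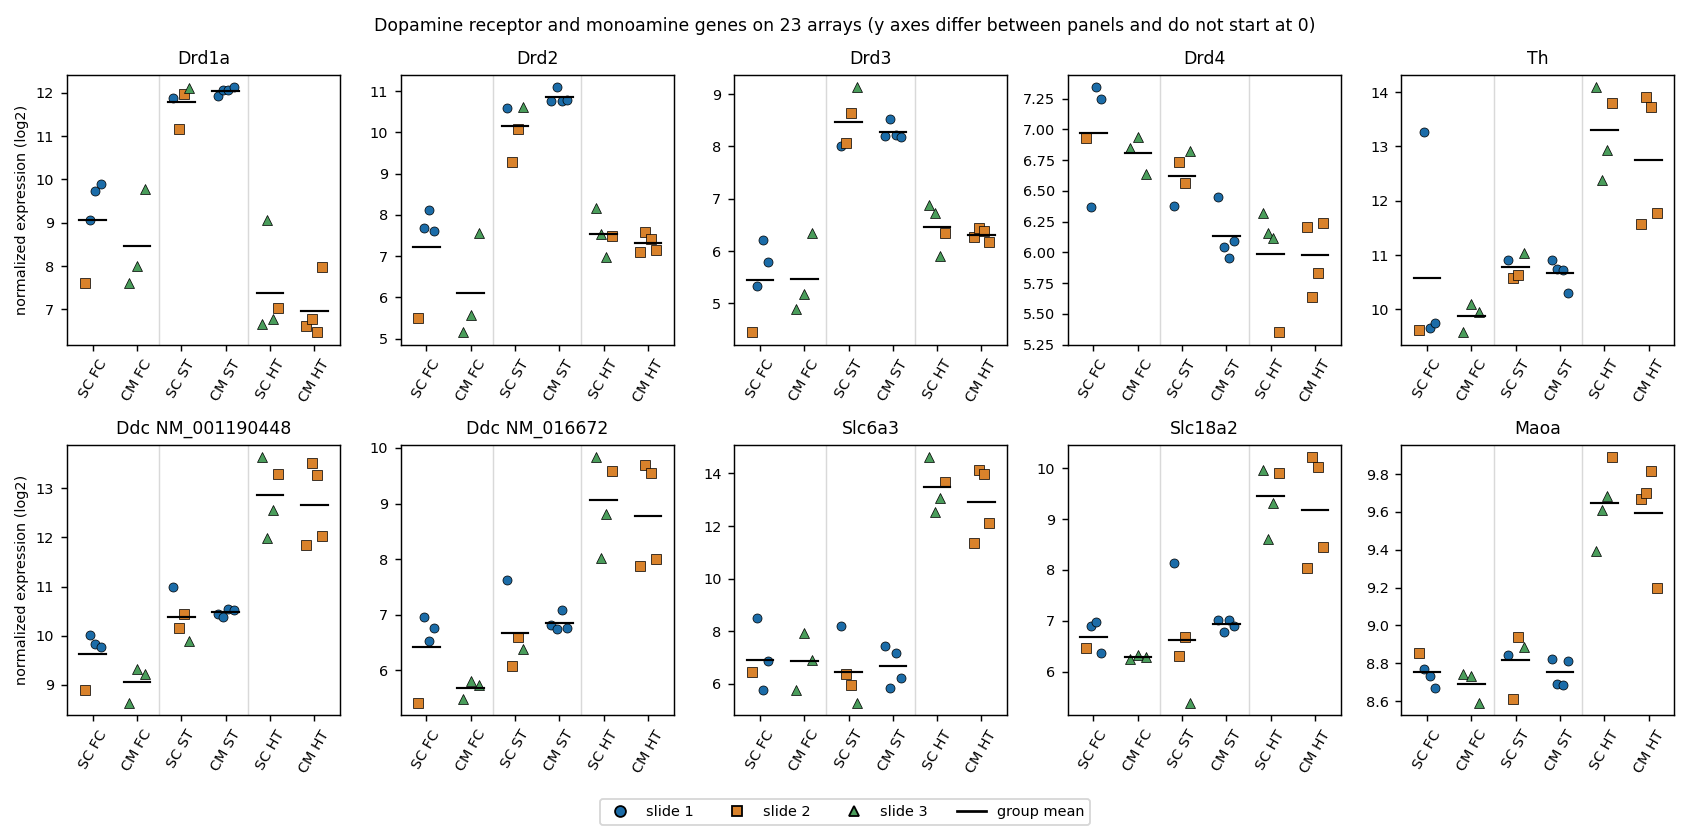
Normalized expression (log2, y axis) of the 10 rows in the 6 groups (x axis), with a point for each of the 23 arrays, shaped and colored by slide, and a line at the group mean. Drd1a, Drd2 and Drd3 are highest in ST, Th, Ddc, Slc6a3, Slc18a2 and Maoa in HT, and Th stands at 13.27 on 1 SC FC array.

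Counted over the 10 rows at an adjusted p under 0.05 in limma, 3 were higher and 0 lower in ST than in FC in SC mice, where 7.71% of all rows were higher and 7.22% lower. In CM mice 5 were higher and 1 lower (all rows, 30.5% and 30.1%). From FC to HT, 6 were higher and 2 lower in SC mice (all rows, 22.8% and 20.4%), and 8 were higher and 2 lower in CM mice (29.5% and 28.2%). From ST to HT, 6 were higher and 3 lower in each diet, against 10.7% and 10.8% of all rows in SC mice and 30.4% and 25.9% in CM mice. The same direction was called in both diets for 3 rows from FC to ST, 8 from FC to HT and 9 from ST to HT. The arrays of ST and FC did not overlap for 3 rows in SC mice and 8 in CM mice (all rows, 11.4% and 59.3%). Those of HT and FC did not for 6 and 7 rows (32.4% and 56.4%), and those of HT and ST for 10 and 9 (21.7% and 50.3%). In the fit with slide as a fixed block the CM counts of calls were 0 for ST against FC, 4 for HT against FC and 6 for HT against ST, and the SC counts were 3, 6 and 8.

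**Figure D2:**
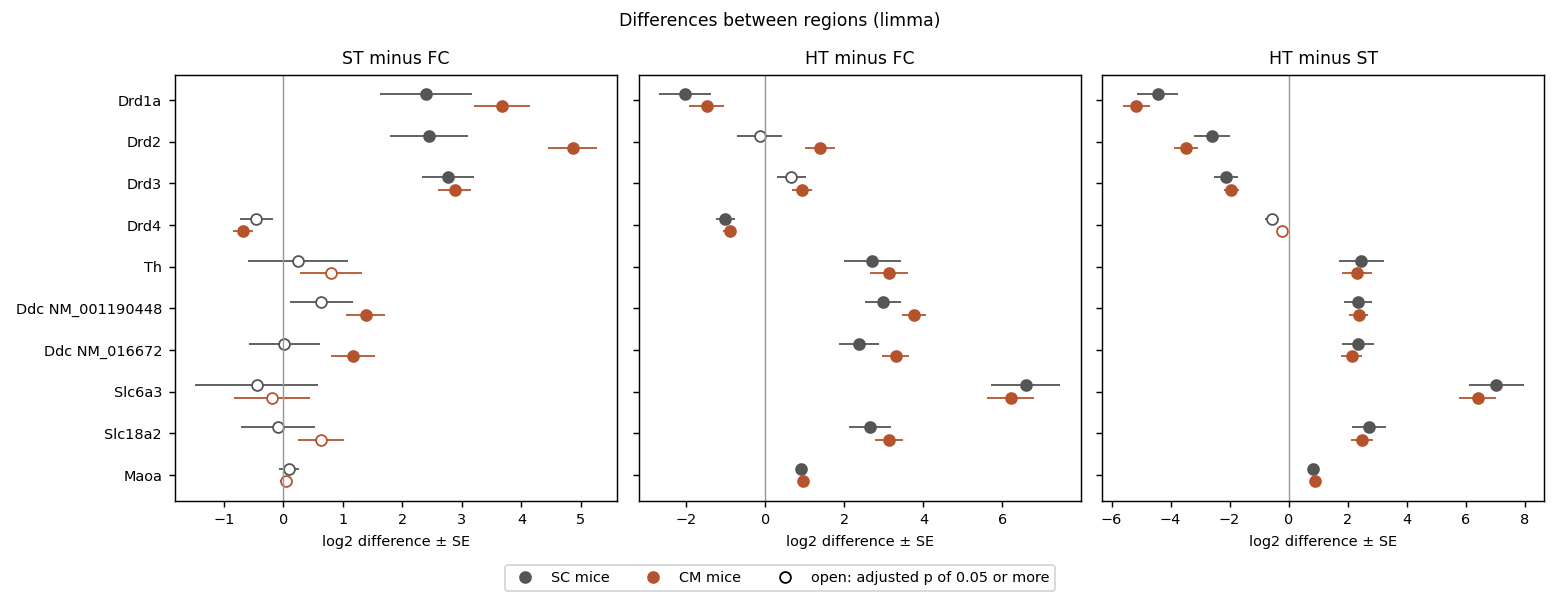
Log2 differences between regions (x axis, ± SE) of the 10 rows (y axis) in SC and CM mice, from limma, with filled points at an adjusted p under 0.05. The receptors Drd1a, Drd2 and Drd3 fall to the right in ST minus FC and to the left in HT minus ST, and Slc6a3 has the widest difference in HT.

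On the HT arrays the genes that mark dopamine neurons varied together from mouse to mouse. Ordered by Slc6a3, the mice were O52 (11.37), O58 (12.12), L54 (12.54), L56 (13.08), L58 (13.69), O56 (13.97), O54 (14.14) and L52 (14.61). Th followed the same order except that L58 (13.80) was above O56 (13.72). The 4 lower and the 4 higher mice were the same for Slc6a3, Th, Slc18a2 and both rows of Ddc. Each set held mice of both diets and arrays of slides 2 and 3.

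Across these 8 arrays the 6 pairs of Th, Ddc NM_001190448, Slc6a3 and Slc18a2 had Pearson's r of 0.963 to 0.982 and Spearman's rho of 0.857 to 0.976. In two-sided exact permutation tests the largest p were 0.000521 for r and 0.0107 for rho, which Benjamini-Hochberg adjustment over the 6 pairs left unchanged. With diet means subtracted r was 0.97 to 0.99. Without the 2 arrays farthest from the median of the first gene of each pair it was 0.908 to 0.998 over 6 arrays, with adjusted p of at most 0.0153. Slides 2 and 3 held 5 and 3 of the HT arrays, and no correlation was taken over fewer than 6. On slide 2 the arrays of O52 and O58 lay below those of L58, O56 and O54 for each of the 4 rows, and on slide 3 those of L54 and L56 lay below that of L52.

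The mean of the 7 midbrain dopamine neuron markers past the filter moved with them. In the order of mice given for Slc6a3, the mean of the 7 markers was 7.68, 7.65, 8.04, 7.99, 8.60, 8.60, 8.70 and 8.91. Foxa2 and Pitx3 were picked from the list after their values were seen, and the others are not given here array by array. Foxa2, a transcription factor of the ventral midbrain and floor plate, was at 4.79, 4.71, 5.87, 5.39, 6.82, 6.34, 6.73 and 7.31 in that order. Pitx3, which midbrain dopamine neurons need, was at 7.41, 7.20, 7.43, 7.72, 8.08, 8.02, 8.13 and 8.57. The mean of the hypothalamus markers was lowest in L54 (9.05) and highest in L58 (12.19), and that of the thalamus markers was highest in L54 (12.68) and lowest in L58 (11.46). The part of the extent of dissection in these values was not tested.

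**Figure D3:**
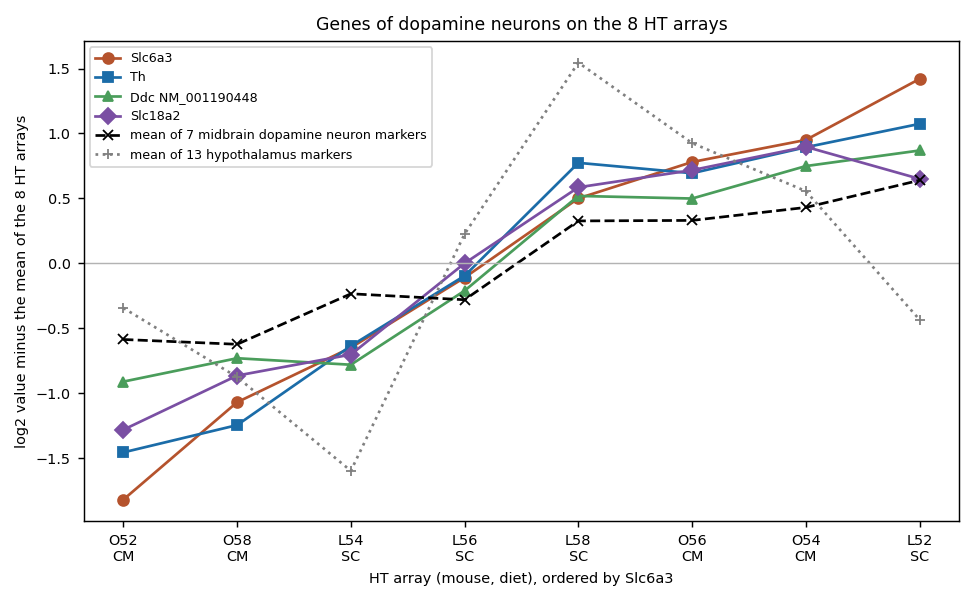
Log2 values of Slc6a3, Th, Ddc and Slc18a2 and the means of the midbrain dopamine neuron and hypothalamus markers, each minus its mean over the 8 HT arrays (y axis), for the 8 arrays ordered by Slc6a3 (x axis). The 4 genes and the midbrain markers are below their means on the 4 arrays at the left and above them on the 4 at the right, apart from Slc18a2 at its mean in L56.

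The 250 bases before the annotated starts of the 9 genes were searched on both strands for 2 motifs known from dopamine neuron genes. These were the cAMP response element TGACGTCA and the NBRE, AAAGGTCA, which Nr4a2 binds. The windows are from RefSeq (GRCm38.p6) and all 9 genes matched, Drd1a under its present name Drd1. Of 32851 windows of this length, 1.55% held the former and 1.34% the latter, and the motifs do not overlap each other in the windows shown. Th held the cAMP response element, beginning 45 bases before its start, and the farther upstream of the 2 starts of Ddc held the NBRE, on the opposite strand, beginning 73 bases before it. No window of Slc6a3, Slc18a2, Maoa or the receptors held these letters. Neither motif was thus shared between any of these genes, and why Th, Ddc, Slc6a3 and Slc18a2 moved together was not tested. The windows of Th at chr7:142899996-142900245 (-), Ddc at chr11:11898145-11898394 (-) and Slc6a3 at chr13:73536497-73536746 (+) are shown in the direction of transcription, with the motifs in capitals.
Th: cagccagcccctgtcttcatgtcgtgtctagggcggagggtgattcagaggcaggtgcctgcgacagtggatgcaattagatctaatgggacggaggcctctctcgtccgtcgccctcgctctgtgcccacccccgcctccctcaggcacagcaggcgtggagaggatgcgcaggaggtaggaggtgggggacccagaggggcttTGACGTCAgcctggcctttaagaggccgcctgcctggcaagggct
Ddc: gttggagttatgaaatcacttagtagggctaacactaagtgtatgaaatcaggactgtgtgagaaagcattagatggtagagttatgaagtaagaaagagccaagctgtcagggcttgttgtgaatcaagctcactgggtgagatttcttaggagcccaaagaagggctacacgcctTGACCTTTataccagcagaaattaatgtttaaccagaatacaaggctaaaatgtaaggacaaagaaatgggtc
Slc6a3: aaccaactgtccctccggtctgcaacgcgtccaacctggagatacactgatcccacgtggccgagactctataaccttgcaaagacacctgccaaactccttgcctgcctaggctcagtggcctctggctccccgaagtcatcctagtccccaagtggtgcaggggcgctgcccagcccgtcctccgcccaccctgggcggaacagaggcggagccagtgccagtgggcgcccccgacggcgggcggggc

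The comparison of diets asks whether free choice of chocolate changed these genes in each region. Drd2 in FC was the only call among the 10 rows in 3 regions. Its SC FC values were 7.22 ± 1.17 (SD, n = 4) and its CM FC values 6.10 ± 1.29 (SD, n = 3), and the groups overlapped. The weighted log2 difference was -1.58 (SE 0.51, limma adjusted p = 0.0258), a 2.99-fold lower level in CM mice, and all rows were called at a rate of 28.6% in FC. Without array weights the Drd2 difference was -1.12 (SE 0.52, limma adjusted p = 0.162) and was not called. The study asked for a 2-fold difference and an adjusted p under 0.01 in FC, and Drd2 reached the former and not the latter. It was lost without the array of O54 (-0.999), O56 (-1.19), L54 (-1.51) or L56 (-1.35), and without that of O58 the difference was -2.19 (adjusted p = 0.000175).

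Drd1a and Drd3 in FC had weighted differences of -1.02 (adjusted p = 0.213) and -0.29 (adjusted p = 0.554), which did not pass the test. Without array weights that of Drd3 was 0.03 (adjusted p = 0.973). Without the array of O58 that of Drd1a was -1.59 (adjusted p = 0.0229). The 3 receptors split the FC arrays in the same way as the striatum markers. Drd2 was at 5.15, 5.49 and 5.57 on the arrays of O54, L52 and O56, where the striatum marker mean was 10.72 to 11.04, and at 7.56 to 8.11 on the other 4, where it was 12.39 to 12.88. Drd1a was at 7.60 to 8.00 on the former and 9.06 to 9.89 on the latter. The 8 striatum markers themselves differed between diets by a median of -1.06 in FC (all rows, -0.04), with limma adjusted p of 0.0583 to 0.292. The part of striatal tissue in the Drd2 difference was not tested. In the fit with slide as a fixed block the Drd2 difference was -0.63 (SE 1.07, adjusted p = 0.973), and as a random block it was -1.52 (adjusted p = 0.18).

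**Figure D4:**
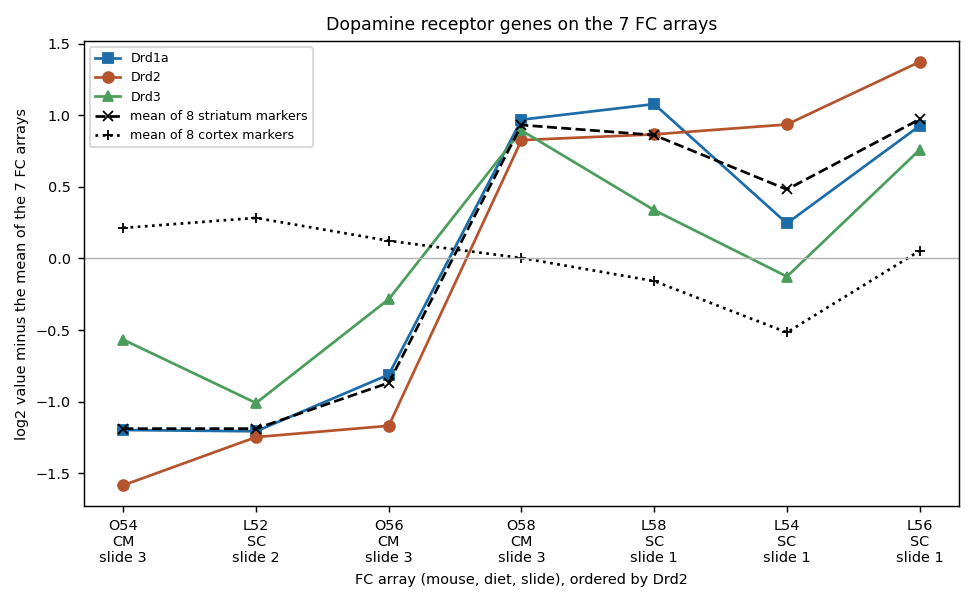
Log2 values of Drd1a, Drd2 and Drd3 and the means of the striatum and cortex markers, each minus its mean over the 7 FC arrays (y axis), for the arrays ordered by Drd2 (x axis, with mouse, diet and slide). The receptors and the striatum markers are low together on the arrays of O54, L52 and O56.

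In ST 0 of the 10 rows passed the test by limma, and 0 had an unadjusted p under 0.05 (9.82% of all rows were called). For Drd2 all 4 CM arrays lay above all 4 SC arrays, where 7.67% of all rows had no overlap between diets in one direction or the other. Its difference was 0.83 (SE 0.56, 95% interval -0.35 to 2.002, adjusted p = 0.375), which did not pass. Without the SC ST array of L54, the lowest of the ST arrays, it was 0.66 (limma adjusted p = 0.394). Against the single SC ST array on the slide of the CM arrays (L52) it was 0.23 (SE 0.75), with that array assumed to vary like the others. Drd4 differed by -0.46 (interval -0.95 to 0.02, adjusted p = 0.221). Th differed by 0.01 (interval -1.49 to 1.51) and Slc6a3 by 0.50 (interval -1.35 to 2.35).

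In HT 0 of the 10 rows passed, again with 0 at an unadjusted p under 0.05 by limma (0.430% of all rows were called), and the diets overlapped for all 10, where 6.77% of all rows did not overlap. The differences ran from -0.45 for Drd1a (interval -1.50 to 0.59) to 0.13 for Ddc NM_001190448 (interval -0.59 to 0.84). Without array weights the latter was -0.19, Ddc NM_016672 went from 0.07 to -0.28 and Slc18a2 from 0.07 to -0.27. That of Drd1a was 0.05 without the SC array of L54. Th and Slc6a3 both differed by -0.13, with intervals of -1.27 to 1.01 and -1.53 to 1.27. Maoa was held more tightly, at -0.01 (interval -0.24 to 0.22).

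Apart from Drd2, the FC differences of the synthesis and transport genes did not pass. They were -0.55 for Th (SE 0.65), -0.66 and -0.86 for the rows of Ddc (SE 0.41 and 0.46), -0.42 for Slc18a2 (SE 0.48) and 0.24 for Slc6a3 (SE 0.80), which was -0.02 without array weights. Without the FC array of L54 that of Th was 0.20 (SE 0.60). For Slc18a2 all 3 CM arrays lay below all 4 SC arrays, and 25.3% of all rows had no overlap in FC.

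The diet effects of the regions were also set against each other. Between FC and ST, 1 of the 10 rows passed, Drd2, with a difference of -2.41 (SE 0.77, limma adjusted p = 0.0236), where 30.1% of all rows passed. It was not called without the FC array of O54, O56 or L56 (adjusted p = 0.0682, 0.0658 and 0.0532), and a fixed slide term made it -0.27 (SE 1.51). Between FC and HT 0 rows passed by limma and 1 had an unadjusted p under 0.05 (20% of all rows were called). That row, Drd2 (-1.53, adjusted p = 0.117), was called without the FC array of O58 (-2.14) or L52 (-1.80). Between ST and HT 0 of the 10 passed, with 0 at an unadjusted p under 0.05, and in limma 0% of all rows were called, with 4658 at an unadjusted p under 0.05.

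**Figure D5:**
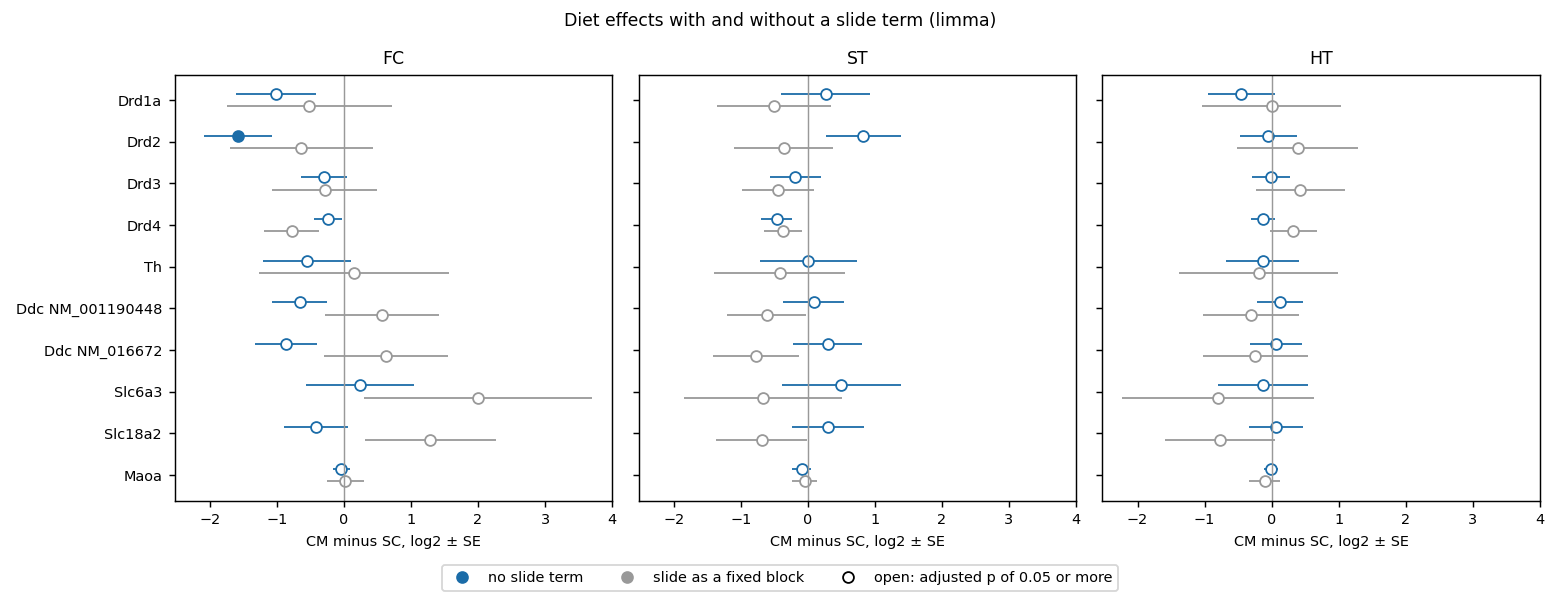
Diet effects (CM minus SC, log2, x axis, ± SE) of the 10 rows (y axis) in FC, ST and HT from limma without and with a fixed slide term. Drd2 in FC without a slide term is the only filled point, and with the slide term its SE grows from 0.51 to 1.07.

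Other genes of the same pathways were taken from lists. As given above, 22.8% of all rows were higher and 20.4% lower in HT than in FC in SC mice, and 29.5% and 28.2% in CM mice. Of 11 genes of synthesis and its cofactor, 5 were higher and 2 lower in HT than in FC in SC mice, among them Pcbd1, which recycles the tetrahydrobiopterin cofactor of Th (2.65), and Gchfr, a regulator of the synthesis of that cofactor (1.39). Dbh, which turns dopamine into noradrenaline, was lower (-2.27). In CM mice 6 were higher and 1 lower. The median difference was 0.19 in SC mice and 0.39 in CM mice, against 0.02 and -0.00 over all rows.

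Of 10 genes of transport and breakdown, 5 were higher and 1 lower in HT than in FC in SC mice and 7 higher and 0 lower in CM mice. They included Hdc, which makes histamine (2.82 and 3.83), and Aldh1a1, an aldehyde dehydrogenase of midbrain dopamine neurons (1.99 and 2.52). The median was 0.32 and 0.71, against 0.02 and -0.00 over all rows. For diet in FC, where 28.6% of all rows were called, 3 of these 10 were lower in CM mice, among them Aldh2, a mitochondrial aldehyde dehydrogenase (-0.96), and Slc22a3, a low-affinity monoamine transporter (-0.81).

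Of 27 genes of signalling downstream of the receptors, 15 were higher and 2 lower in ST than in FC in SC mice, and 18 higher and 4 lower in CM mice. Of all rows 7.71% and 7.22% were so called in SC mice and 30.5% and 30.1% in CM mice. The median was 1.36 and 1.80 (all rows, -0.00 and 0.01). The 27 include the 8 striatum markers of the dissection check. Adora2a, the adenosine receptor of D2 receptor neurons, differed by 3.17 and 4.75. The potassium channel gene Kcnj6 was lower (-1.03 and -1.22). For diet in FC, 1 of 27 was called (all rows, 28.6%), Caly, a D1 receptor interacting protein (-0.45).

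Of 12 genes of dopamine neuron identity, 11 were higher and 0 lower in HT than in FC in SC mice, with a median of 3.04, and 10 higher and 1 lower in CM mice, with a median of 2.87 (all rows, 0.02 and -0.00). The 12 include the 7 midbrain dopamine neuron markers of the dissection check, so these counts are not independent of it. Otx2 is also in the choroid plexus list. Foxa1, a factor of developing and adult dopamine neurons, differed by 5.38 and 5.16, and Dlk1, a Notch-related surface protein, by 4.80 and 5.65. Lmx1b was the gene lower in CM mice (-0.33). For diet in FC, Pitx3 (0.98) and Lmx1b (0.92) were called higher in CM mice, 2 of 12 where 28.6% of all rows were called. In ST Lmx1b was called lower in CM mice (-0.52, adjusted p = 0.0257). Pitx3 was at 6.83 to 7.24 on the CM FC arrays, 6.79 on the SC FC array of L52, which lay on another slide than the rest of its group, and 5.48 to 6.13 on the SC FC arrays of slide 1. Markers of other cells were also called higher in CM FC, both pituitary markers (Lhb, 2.16, and Gh, 0.53) and 1 of 2 serotonin neuron markers (Fev, 1.26). The pituitary marker mean was 6.53 to 6.79 on the CM FC arrays, 5.95 on that of L52 and 5.21 to 5.24 on the SC FC arrays of slide 1, and their part in the Pitx3 and Lmx1b differences was not tested. Lhb was called lower in CM mice in ST (-1.02). Lhb, Gh and Fev were picked after their values were seen.

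Likeness of pattern over the 23 arrays was measured by Pearson's r, over points that share mice and regions. Among the rows most like Drd1a were Ppp1r1b (r = 0.995) and Sh3rf2 (0.985). Most like Drd2 were Ankrd37 (0.976), Scube3 (0.976) and Grb7 (0.974), and most like Drd3 were Scube3 (0.964), Spint1 (0.949) and Tmem90a (0.949). Th was matched best by Nrarp (0.926), Epb4.1l4a (0.925) and Vwce (0.92), and Slc6a3 by Chrna6 (0.975), Fam158a (0.967) and Akap12 (0.96). Slc18a2 was matched best by Ret (0.96), Ddc NM_016672 (0.958) and Gch1 (0.957). For Ddc NM_001190448 the best matches were Aldh1a1 (0.971), 2210013O21Rik (0.967) and 4933436C20Rik (0.96), and for NM_016672 they were Vwce (0.968), Timm17b (0.959) and Slc18a2 (0.958). Drd4 and Maoa spanned less than 1 log2 unit between group means and were not matched.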

How the data were processed

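RNA of frontal cortex, striatum and the region that the study calls hypothalamus was hybridized by the authors to Agilent SurePrint G3 Mouse GE 8x60K arrays. Of these, 23 arrays of 8 mice were analyzed. Feature Extraction 10.7.3.1, per the file headers, gave linear spot intensity (build mm9), and the authors deposited these intensities and a table of log2 values. R 4.3.3 was used with data.table (1.17.8), limma (3.58.1) and statmod (1.5.0). Background correction of median intensities by normexp (offset 0) was followed by quantile normalization. Probes above 1.1 times the log2 95th percentile of 308 negative controls on 4 or more arrays were retained, with a mean per transcript. The result differed from the deposited log2 values by at most 5e-09.

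Group means were fitted to all arrays by limma with gene-by-gene array weights (0.222 to 2.74), the mouse as a random block (correlation -0.0398) and Benjamini-Hochberg adjustment over 31395 rows, and calls were made at an adjusted p under 0.05. Differences are therefore weighted and can depart from those of plain means. The mouse pairs regions through the titles of the samples. No slide term was fitted, which follows the methods of the study. The weights' estimator was chosen in earlier work on these data after values had been seen. The fits were tested on simulated data.

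The members, lists and tests were chosen with earlier results of these data known. Every row and probe of the members is described. Other named genes are, from each of 4 pathway lists, up to 2 called genes with the largest rise and fall, and the 3 rows most correlated with each member whose group means spanned at least 1 log2 unit. Some genes that this rule selects are not reported here. Markers of regions and neuron types served as checks. Alternatives varied the slide, blocks, weights, signal, background offset, normalization, filter, averaging, thresholds and the arrays used. The arrays of a group came from different mice, so the spread is that between mice, and the number of arrays limits the precision. RefSeq sequences are of GRCm38.p6, and no coordinates were converted between builds.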

Additional observations from a re-analysis of the deposited data

Results flagged for a closer look

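Within groups of 4 arrays, the highest or lowest value was tested for its gap to the rest with Dixon's 95% critical value, over 50 combinations of row and group, and 4 were past it. Chance gives this in about 1 in 20 groups. Th was at 13.27 on the SC FC array of L54, and the gap took up 0.964 of the group's range. Drd1a was at 9.06 (9.055) on the SC HT array of L54. Drd2 was at 11.11 and Drd3 at 8.53 (8.527) on the CM ST array of O54, in groups whose SD were 0.17 and 0.16.

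The diet effect on Drd2 differed between FC and ST by a log2 of -2.41 (limma adjusted p = 0.0236), the only such difference that passed among the members. The cause was not tested.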

How the results depend on the processing

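Of the 2970 comparisons of 120 member values with an alternative, 1762 under other settings and 1126 with 1 array left out kept their side of the threshold, 53 and 21 lost their call and 4 and 3 gained one. Values that were not called could change sign, as did Drd2 for diet in ST (-0.36 with a fixed slide block). Only 1 called value reversed, Ddc NM_016672 in ST against FC of CM mice, which was -0.40 (adjusted p = 0.891) in the fit with slide as a fixed block. Under that block the number of called rows went from 6 to 0 for ST against FC and from 10 to 4 for HT against FC in CM mice, and for HT against ST from 9 to 6 in CM and 9 to 8 in SC mice. Drd2 was the row called for diet in FC and for the difference of FC from ST. Both counts went from 1 to 0 with the slide as a fixed or random block, without array weights, with signals scaled to the 75th percentile and under the study's thresholds, and that for FC also without 3 SC arrays (FC and HT of L54, ST of L52), an alternative chosen after seeing the data. The last also took ST against FC in SC mice from 3 to 1, as did the study's thresholds. The cause was not tested.

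With each array left out in turn, 0 to 2 rows were called for diet in FC, 0 to 1 for FC against ST and 0 to 1 for FC against HT in the diet effect, and 1 to 3 for ST against FC in SC mice, where the lowest came without the ST array of L56. The Drd2 difference for diet in FC then ran from -2.19 to -0.999. With the FC arrays alone it was not called (-1.56, adjusted p = 0.173), and Ddc NM_016672 was (-0.87, adjusted p = 0.035).

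Label numbers recur in both diets but named different mice, and same-numbered arrays of a region deviated with correlations of -0.32 to 0.14. With this number as a replicate block the Drd2 difference in FC was -1.46 (adjusted p = 0.0455), without any block -1.58 (adjusted p = 0.0268), and neither changed a call of any member. The 3 or 4 arrays a group limited precision, and the median half-width of the 95% intervals of the diet effects was 0.986 for FC, 0.826 for HT and 1.09 for ST.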
